A study of Rattus with 6 samples.

Results

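The haematopoietic niche factors of marrow stroma are described here across 6 RNA sequencing libraries of cultured rat bone marrow mesenchymal stem cells. The set holds 8 genes, chosen by name as factors through which stromal cells keep blood stem cells and blood progenitors in the marrow, and all 8 were found among the 16690 genes of the deposited table. They are the chemokine gene Cxcl12, the KIT ligand gene Kitlg, the angiopoietin gene Angpt1, the adhesion gene Vcam1, the interleukin gene Il7, the leptin receptor gene Lepr and the transcription factor genes Ebf3 and Foxc1. Cells came from Sprague Dawley rats in which chronic kidney disease had been modelled (CKD, 3 libraries) and from healthy control rats (3 libraries). Both groups are labelled wild-type, and the way the disease was brought about and the age of the rats are not given in the sources used here. The cells had been grown on plastic in serum through several passages, so they stand for marrow stroma only as far as such cultures do, and the labels name the cells in one place and exosomes in another as the source of the RNA.

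In the marrow, perivascular stromal cells that carry the leptin receptor are the main source of CXCL12, which holds stem cells in place through its receptor CXCR4, and of KIT ligand, which supports them through the receptor KIT. The transcription factors FOXC1 and EBF3 are known to keep these stromal cells in their niche-supporting state and away from the fat and bone fates. VCAM1 anchors blood cells through the integrin α4β1, ANGPT1 acts on the receptor TIE2 (gene Tek), and IL7 feeds developing lymphocytes.

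Recovered library depth was 34404037 to 46892613 fragments. Over the 10638 tested genes, Pearson r was 0.996 between CKD replicates 2 and 3 and 0.998 between control replicates 2 and 3, whereas the first replicate of each group stood apart from its own group (r between 0.935 and 0.951). With the 3 controls, CKD replicate 1 had r = 0.967, 0.950 and 0.946, all above its values of 0.935 and 0.944 with CKD replicates 2 and 3. The tag for the disease model goes against the other labels in CKD replicate 1 and in control replicate 2, and groups follow the titles and column codes. Library names share a stem between CKD replicates 1 and 3 and between control replicates 1 and 2, and the labels do not say what the stem stands for. All 10 stromal markers, among them Col1a1, Dcn, Pdgfra and Pdgfrb, had at least 1 FPKM (fragments scaled to gene length and sequencing depth) in every library. Their levels were not uniform. Dcn was at 228, 312 and 227 FPKM in CKD and at 87.0, 19.9 and 9.15 FPKM in control, without overlap (limma adjusted p = 0.0985). Of the 10, limma called 0, where it called 2.07% of all tested genes. Log2 fold changes were positive for 4 and negative for 6 (positive for 59.4% of all tested genes). An unadjusted p under 0.05 in limma was found for 3 of the 10, against 22.1% of all tested genes. CKD lay wholly above control for 2 of them and wholly below for 1, against 18.3% and 9.59% of all tested genes. Markers of haematopoietic cells and macrophages differed widely. Their summed level over 20 genes was 300.2 to 3396 FPKM in CKD, with 3396 and 2299.8 in replicates 2 and 3, and 14.9 to 422 FPKM in control, with 422 in replicate 1. In control replicate 3, Adgre1, C1qb and C1qc were listed at 0, and in control replicate 2 C1qc was. In bulk RNA, fewer cells of a type and less RNA per cell cannot be told apart.

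Of the 8 niche factors, Cxcl12 had the highest level in 6 of 6 libraries, and Lepr had the lowest mean, though Ebf3 lay below it in control replicate 1. Cxcl12 exceeded Kitlg, and Kitlg exceeded Angpt1, in 6 of 6 libraries. The middle of the order was less settled, since Angpt1 exceeded Foxc1 in 4 of 6 libraries, Foxc1 exceeded Vcam1 in 5 and Vcam1 exceeded Ebf3 in 4. Ebf3 exceeded Il7 in 5 of 6 libraries and Il7 exceeded Lepr in 6 of 6. FPKM is corrected for gene length, so levels of different genes are set side by side here. It is not corrected for sequence shared with an overlapping gene, which may affect the places of Lepr, Angpt1 and Il7.

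**Figure D1:**
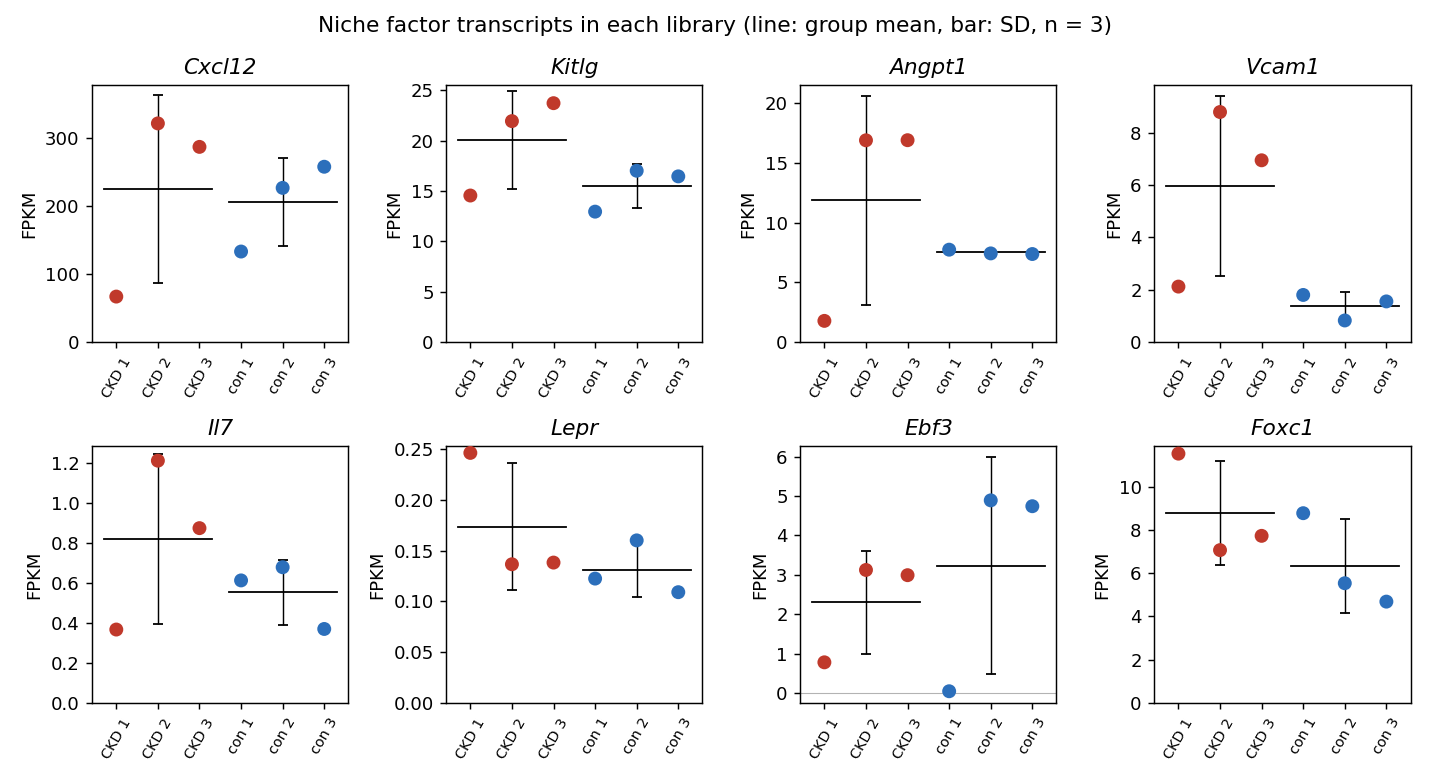
FPKM of each niche factor in the 6 libraries (CKD in red, control in blue); the line is the group mean and the bar its SD (n = 3). Cxcl12 was lowest in the first replicate of each group, at 66.9 and 133 FPKM, and Vcam1 is the gene whose groups do not overlap.

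None of the factors passed the test between CKD and control. Only 6 of the 8 could be tested, since Il7 and Lepr did not reach 1 FPKM in at least 3 libraries. Limma, run on log2(FPKM + 1) over all 10638 tested genes with Benjamini-Hochberg adjustment, called 0 of the 6 at 0.05, where it called 2.07% of all tested genes. At an unadjusted p under 0.05 it gave 1, Vcam1, against 22.1% of all tested genes, and limma-voom on recovered fragment counts called 0, where it called 1.33% of genes. Log2 fold changes were positive for 4 and negative for 2 (positive for 59.4% of all tested genes), with a median of 0.26 against 0.053 over all tested genes. The groups did not overlap for 1 of the 6, against 27.8% of tested genes. In the authors' deposited table, 1 of the 8 had a q-value under 0.05, again Vcam1, where 11.3% of all genes did.

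Cxcl12 (NCBI Gene 24772), the chemokine that retains stem cells, stood at 66.9, 321 and 286 FPKM in CKD replicates 1 to 3 and at 133, 226 and 257 FPKM in control replicates 1 to 3. The first replicate of each group was low and the other libraries were high, and the groups overlapped. CKD averaged 225 ± 138 FPKM and control 205 ± 64.7 FPKM (SD, n = 3 each), with a log2 fold change of -0.11 ± 0.65 SE (limma adjusted p = 0.940). Across libraries the gene ranked between place 201 and place 893 of the table by level, and its lowest library still held 17860 fragments, so its spread lies far above counting error. The direction depended on single libraries. It turned to 0.61 without CKD replicate 1 and to 0.08 without control replicate 3, with limma adjusted p-values of 0.238 and 0.974. In the authors' deposited table the log2 fold change was 0.03 with q = 0.986.

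Kitlg (NCBI Gene 60427), which encodes the growth factor of KIT-bearing progenitors, was the steadiest of the tested factors. It stood at 14.6, 22.0 and 23.7 FPKM in CKD and at 13.0, 17.0 and 16.5 FPKM in control, replicates 1 to 3. CKD replicates 2 and 3 lay above every control library, while CKD replicate 1 lay within the control range. The log2 fold change was 0.34 ± 0.21 SE (means 20.1 ± 4.86 and 15.5 ± 2.20 FPKM, SD, n = 3 each), and it did not pass (limma adjusted p = 0.382). It stayed positive in all 16 alternative fits, from 0.16 to 0.61.

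Angpt1 (NCBI Gene 89807), which encodes the TIE2 agonist angiopoietin 1, was at 1.79, 16.9 and 16.9 FPKM in CKD and at 7.75, 7.44 and 7.38 FPKM in control. The 3 controls were nearly level, and the CKD libraries fell on either side of them, replicate 1 below and replicates 2 and 3 above. The control mean was 7.52 ± 0.197 FPKM and the CKD mean 11.9 ± 8.73 FPKM (SD, n = 3 each), with a log2 fold change of 0.18 ± 0.75 SE (limma adjusted p = 0.913). Between the first replicates the level in CKD was 0.23 times that in control, and between the means of replicates 2 and 3 it was 2.28 times. Without CKD replicate 1 the gene was called, at a log2 fold change of 1.07 (limma adjusted p = 0.00462), in a fit that called 15.1% of all genes. Without CKD replicate 2 or CKD replicate 3 the sign turned, at -0.27 in each (limma adjusted p = 0.907 and 0.910).

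Vcam1 (NCBI Gene 25361), the endothelial and stromal adhesion molecule that some marrow macrophages also carry, was the factor with the largest difference. It stood at 2.12, 8.78 and 6.94 FPKM in CKD and at 1.80, 0.829 and 1.56 FPKM in control. Every CKD library lay above every control library, and CKD replicate 1 lay only just above control replicate 1. Genes with CKD wholly above control made up 18.3% of those tested. CKD averaged 5.95 ± 3.44 FPKM and control 1.40 ± 0.506 FPKM (SD, n = 3 each). The log2 fold change was 1.40 ± 0.45 SE, with an unadjusted p of 0.0222 and an adjusted p of 0.159 in limma. In the authors' deposited table the log2 fold change was 1.99 with q = 0.00605, where 6.72% of genes were higher at a q under 0.05.

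The libraries high in Vcam1, CKD replicates 2 and 3, were also those with the most leukocyte RNA, and control replicates 2 and 3, with the least, were low in it. With the mean of the haematopoietic and macrophage markers as a covariate, the log2 fold change of Vcam1 was 0.41 (limma adjusted p = 0.769). In the first replicates, where those markers summed to 300.2 FPKM in CKD and 422 FPKM in control, Vcam1 was 1.18 times as high in CKD as in control. The part of leukocyte RNA in the Vcam1 values was not tested.

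Of 12 endothelial markers 9 were in the table, and they summed to 8.35 to 14.1 FPKM in CKD and 7.57 to 11.9 FPKM in control, most of it Egfl7. Egfl7 was at 5.90, 7.26 and 8.24 FPKM in CKD and at 6.42, 9.95 and 11.2 FPKM in control. It was highest in control replicates 2 and 3 (limma log2 fold change -0.31 ± 0.22 SE, adjusted p = 0.445). Some other endothelial markers were, like Vcam1, highest in CKD replicates 2 and 3. Tie1 was at 2.48 and 2.31 FPKM there and at most 0.154 FPKM elsewhere, being listed at 0 in control replicates 2 and 3. Esam was at 2.72 and 2.18 FPKM there and at 0.107 to 0.277 FPKM elsewhere, and Flt1 at 0.508 and 0.679 against 0.0487 to 0.121 FPKM. Pecam1, Kdr, Cdh5 and Vwf were at 0.172 FPKM or less in every library, with Kdr listed at 0 in both first replicates, Pecam1 in control replicate 1 and Cdh5 in control replicates 2 and 3. Erg was highest in CKD replicate 1, at 2.13 FPKM. The part of endothelial RNA in the values of Vcam1 and Angpt1 was not tested.

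Vcam1 was called without CKD replicate 1 (log2 fold change 1.90, limma adjusted p = 0.0127). It was also called without both libraries whose tags conflict (1.72, limma adjusted p = 0.0413), in a fit that called 2.80% of genes.

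Il7 (NCBI Gene 25647), a cytokine of lymphoid progenitors, lay near the limit of the test, at 0.368, 1.21 and 0.876 FPKM in CKD and 0.614, 0.680 and 0.371 FPKM in control. These levels rest on 35 to 103 fragments. CKD replicates 2 and 3 were the highest libraries and CKD replicate 1 was the lowest, so the groups overlapped. The 95% exact Poisson interval, which covers counting error only, was 0.707 to 1.07 FPKM in CKD replicate 3 and 0.530 to 0.859 FPKM in control replicate 2. Without a filter on low values the log2 fold change was 0.20 ± 0.19 SE (limma adjusted p = 0.581).

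Lepr (NCBI Gene 24536), whose product marks niche stroma in the marrow, was barely detected. It stood at 0.246, 0.136 and 0.138 FPKM in CKD and at 0.122, 0.160 and 0.109 FPKM in control, from 40 to 91 fragments per library. CKD replicate 1 was the highest, and its 95% exact Poisson interval (0.198 to 0.302 FPKM) overlapped only that of control replicate 2 (0.123 to 0.204 FPKM). The intervals of the remaining libraries lay below it, ending at 0.183 FPKM or less. Without a filter the log2 fold change was 0.053 ± 0.046 SE (limma adjusted p = 0.545). In the reference gene table Lepr overlaps Leprot, a gene for a regulator of receptor traffic. Of the other factors, Angpt1 overlaps LOC102547184 there and Il7 overlaps LOC120100774. How fragments of shared sequence were counted, or whether they were left out, is not given. The levels of Lepr, Angpt1 and Il7 may therefore be affected. Leprot was at 28.8 to 46.3 FPKM over the 6 libraries. Lep, the leptin gene, was at 0.0317 FPKM or less in every library.

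Ebf3 (NCBI Gene 361668), a factor of the early B-cell factor family that maintains niche stroma, had the widest range. It stood at 0.785, 3.13 and 2.99 FPKM in CKD and at 0.052, 4.89 and 4.74 FPKM in control. Both first replicates were low, and control replicate 1 was nearly empty, with 12 fragments (95% exact Poisson interval 0.0269 to 0.0909 FPKM) against 893 to 1004 in the other controls. Among replicates 2 and 3, CKD lay below control, at a mean of 3.06 against 4.82 FPKM, while among the first replicates CKD was the higher. The log2 fold change over all libraries was -0.09 ± 0.76 SE (limma adjusted p = 0.956). Leaving out CKD replicate 1 (0.30), control replicate 2 (0.33) or control replicate 3 (0.31) made it positive, with limma adjusted p-values of 0.832, 0.897 and 0.899.

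Foxc1 (NCBI Gene 364706), the forkhead factor needed for CXCL12-rich stroma, ran the other way across libraries. It stood at 11.5, 7.07 and 7.73 FPKM in CKD and at 8.78, 5.54 and 4.69 FPKM in control. The first replicate of each group was the highest, and the groups overlapped. The log2 fold change was 0.43 ± 0.26 SE (means 8.78 ± 2.41 and 6.34 ± 2.16 FPKM, SD, n = 3 each; limma adjusted p = 0.381).

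**Figure D2:**
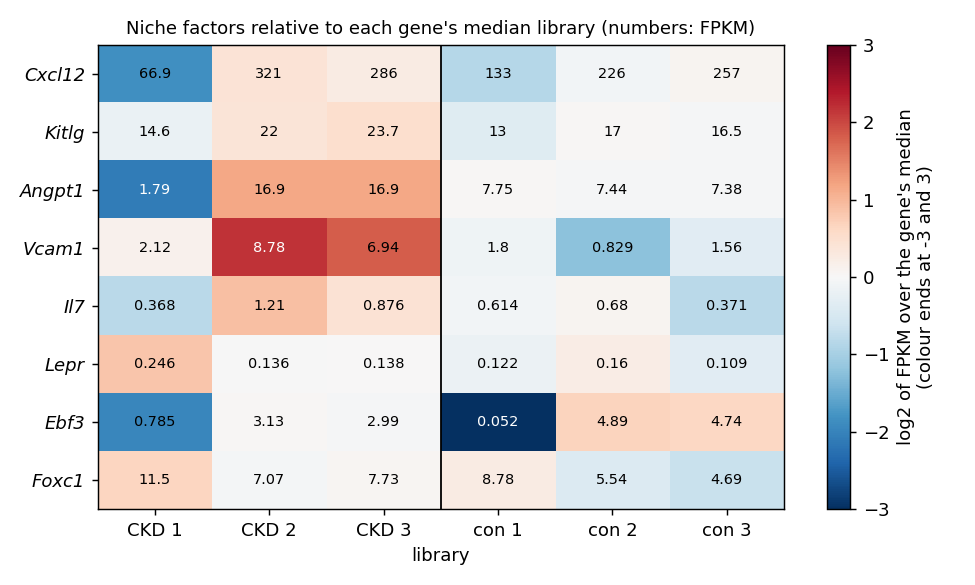
Colour gives log2 of FPKM over the gene's median library and each number is the FPKM. The first replicates are low for Cxcl12, Kitlg and Ebf3 and high for Foxc1, and Vcam1 and Angpt1 are high in CKD replicates 2 and 3.

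All 6 tested factors varied more within the groups than most genes did. The within-group SD of log2(FPKM + 1) was 1.12 for Ebf3, 1.10 for Angpt1 and 0.95 for Cxcl12, higher than in 97.9%, 97.8% and 97.0% of tested genes. For Vcam1 it was 0.66, higher than in 93.7%. Foxc1 (0.37, 84.2%) and Kitlg (0.29, 77.9%) varied less. The highest library exceeded the lowest 94.0-fold for Ebf3, 10.6-fold for Vcam1, 9.47-fold for Angpt1, 4.80-fold for Cxcl12, 2.46-fold for Foxc1 and 1.83-fold for Kitlg.

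**Figure D3:**
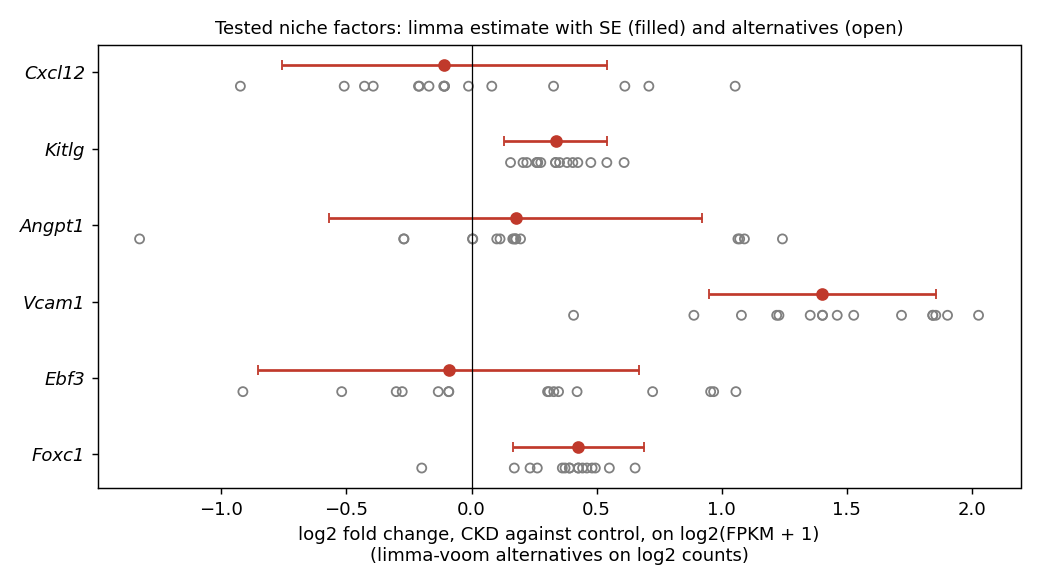
Filled points give the limma log2 fold change of CKD against control with its SE, and open points give the same quantity under each alternative fit. Kitlg and Vcam1 stay above 0 in every alternative, Foxc1 does in every one but the grouping by disease model tag (-0.20), and Cxcl12, Angpt1 and Ebf3 lie on both sides of 0.

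With both first replicates left out, all 6 tested factors were called, 5 higher in CKD and Ebf3 lower. That fit rests on 2 libraries a group that were nearly alike, and it called 55.0% of all tested genes. Vcam1 had a log2 fold change of 2.03 there, Angpt1 1.09, Foxc1 0.46, Kitlg 0.42, Cxcl12 0.33 and Ebf3 -0.52. The labels do not say whether those alike libraries came from separate animals, so the p-values measure only the spread between libraries, which may be technical.

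Receptors and partners of the factors were mostly low, as 8 of 12 did not reach the filter. Of the 4 tested, limma called 0 (1 at an unadjusted p under 0.05, where 22.1% of all tested genes were; limma-voom 0), and the median log2 fold change was 0.58. The authors' deposited table, which sets no such filter, had q under 0.05 for 4 of the 12 higher in CKD (6.72% of all genes) and 1 lower (4.60%). The 4 were Cxcr4, Itga4, Itga9 and Kit, and the lower one was Tek. In all 5 the groups did not overlap, as in 27.8% of tested genes. The q-values come from the same libraries, so this adds no separate support. Of the 5 only Cxcr4 reached the filter, and Kit had at most 29 fragments in a library. Cxcr4, the CXCL12 receptor of stem cells and leukocytes, was at 2.58, 23.7 and 16.7 FPKM in CKD and 2.13, 0.238 and 0.214 FPKM in control. The groups did not overlap, and the log2 fold change was 2.79 ± 0.81 SE (limma adjusted p = 0.136). In the authors' deposited table its q-value was 0.00238. Cxcl12 outnumbered Cxcr4 between 13.6-fold and 25.9-fold in the CKD libraries, 62.3-fold in control replicate 1, 949-fold in control replicate 2 and 1202-fold in control replicate 3.

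Ackr3, the scavenging receptor of CXCL12, followed another order. It was at 11.9, 21.0 and 23.7 FPKM in CKD and 2.99, 23.4 and 27.2 FPKM in control, low in both first replicates as Cxcl12 was (limma adjusted p = 0.775). Itga4, the α4 chain that binds VCAM1, was at 0.544, 4.57 and 5.60 FPKM in CKD against 0.263 to 0.366 FPKM in control and did not reach the filter. Its q-value in the authors' deposited table was 0.000101. Itga9, a chain of another VCAM1-binding integrin, was at 0.146, 0.468 and 0.458 FPKM in CKD and at most 0.00985 FPKM in control, with a q-value in the authors' deposited table of 2.66e-13. Their partner chain Itgb1 was abundant everywhere, at 847 to 1204 FPKM (limma adjusted p = 0.435).

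Tek, the receptor of ANGPT1, was lower in every CKD library than in every control, at 0.374, 0.0954 and 0.0864 FPKM against 0.644, 2.25 and 2.31 FPKM. Groups in that order were found for 9.59% of tested genes. Tek did not reach the filter, and its q-value in the authors' deposited table was 0.000516, where 4.60% of genes were lower at a q under 0.05. Il7r was at 0.311, 2.68 and 2.75 FPKM in CKD and 0.709, 0.0895 and 0.0719 FPKM in control. Kit was at most 0.128 FPKM in any library and listed at 0 in control replicates 2 and 3, with a q-value of 0.0371 in the authors' deposited table.

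**Figure D4:**
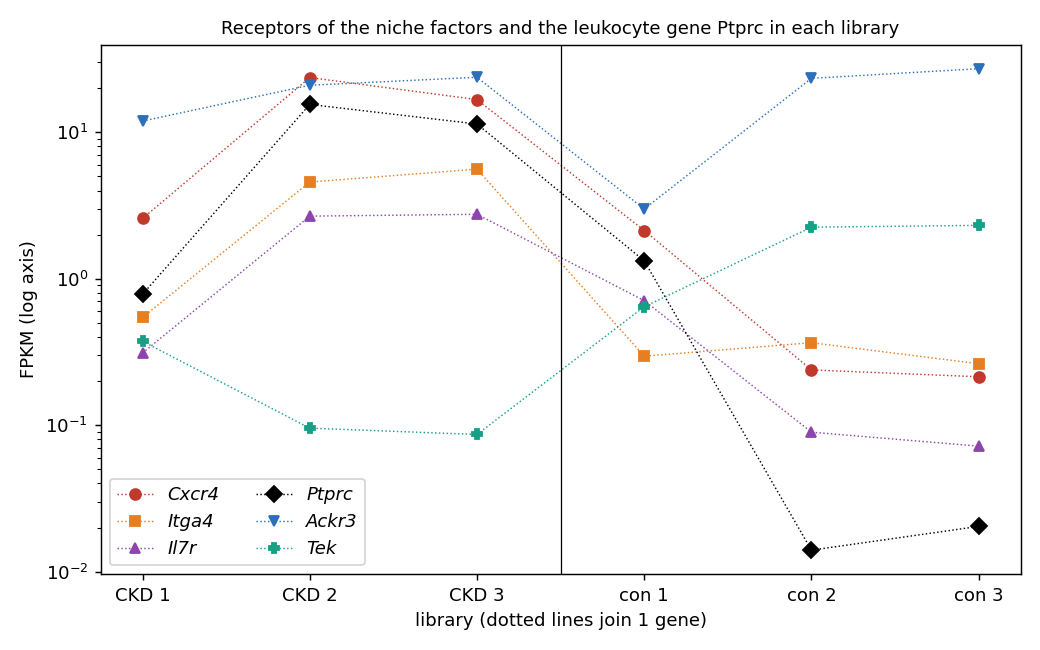
FPKM on a log axis of 5 receptor genes and of Ptprc, the leukocyte gene for CD45, in each library. Cxcr4, Itga4 and Il7r are highest in CKD replicates 2 and 3, where Ptprc is at 15.5 and 11.4 FPKM, while Tek is lowest there.

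Cxcr4, Itga4 and Il7r were highest in the libraries richest in leukocyte markers. Of those 20 markers, 17 were tested, all 17 had positive log2 fold changes (59.4% of all tested genes; median 3.16), and limma called 0 of them, with 9 at an unadjusted p under 0.05 (22.1% of all tested genes). The part of these cells in the receptor values was not tested.

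Among 30 other ligands that marrow stroma can offer to blood cells, 28 were in the table and 20 were tested. Limma called 0 (3 at an unadjusted p under 0.05, a smaller share than the 22.1% of all tested genes; limma-voom 0), with 13 positive and 7 negative log2 fold changes and a median of 0.20, near the 59.4% positive among all tested genes. Csf1, the growth factor of macrophages, was at 77.0, 134 and 145 FPKM in CKD and 80.7, 146 and 154 FPKM in control, lowest in the first replicates (limma log2 fold change -0.10 ± 0.35 SE, adjusted p = 0.901). Flt3lg, a growth factor of dendritic and lymphoid progenitors, was at 2.28 to 3.34 FPKM in CKD and 3.15 to 5.32 FPKM in control (limma adjusted p = 0.268). Igf1 was at 4.19, 22.9 and 17.4 FPKM in CKD and 12.0, 4.11 and 3.55 FPKM in control (limma adjusted p = 0.448). Spp1, the osteopontin gene, was at 476, 2043 and 1682 FPKM in CKD and at 584, 644 and 637 FPKM in control (limma adjusted p = 0.374).

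Angpt4 and Tgfb1 were chosen after their values were seen. Angpt4, another ligand of TIE2, was at 2.64, 6.21 and 6.26 FPKM in CKD and 2.66, 9.52 and 10.7 FPKM in control (limma adjusted p = 0.683). Tgfb1, which holds stem cells in quiescence, had the lowest adjusted p of the ligands (0.0736 in limma), at 49.4, 54.4 and 50.0 FPKM in CKD and 33.4, 38.9 and 39.1 FPKM in control.

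Of 21 other transcription factors of stroma, 18 were tested, with a median log2 fold change of 0.17. Limma called 1, Zeb1, lower in CKD as 0.733% of all tested genes were. An unadjusted p under 0.05 in limma was found for 5 of the 18, against 22.1% of all tested genes. In the authors' deposited table, q was under 0.05 for 4 of the 21 higher in CKD (6.72% of all genes) and for 1 lower, Zeb1 (4.60%). Zeb1, a zinc finger factor that promotes the mesenchymal state, fell from 11.8, 11.7 and 10.7 FPKM in control to 8.14, 6.76 and 6.85 FPKM in CKD (limma log2 fold change -0.59 ± 0.09 SE, adjusted p = 0.0463). It lost the call in 12 of 16 alternatives, though its log2 fold change was negative in all 16. Those were fits leaving out CKD replicate 2, CKD replicate 3, or control replicate 2 or 3 (limma adjusted p = 0.202, 0.235, 0.201 and 0.210), the replicate block (0.0756), no filter (0.0647), upper quartile scaling (0.0646) and limma-voom with and without a filter (0.0556 and 0.0717). The call was also lost without the libraries whose tags conflict (0.0664), with groups by that tag (log2 fold change -0.28, limma adjusted p = 0.735) and with the leukocyte covariate (0.271). Ebf1, the most abundant relative of Ebf3, was at 9.13, 16.1 and 17.0 FPKM in CKD and 4.98, 10.6 and 11.4 FPKM in control, again lowest in the first replicates (limma adjusted p = 0.364).

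Ebf2 was at 0.187, 2.10 and 2.38 FPKM in CKD and 0.736, 8.59 and 9.34 FPKM in control, low in both first replicates and highest in the other controls (limma log2 fold change -1.26 ± 0.81 SE, adjusted p = 0.401). Runx1, a factor of blood and stroma, was at 17.0, 19.6 and 18.7 FPKM in CKD and 16.6, 25.1 and 25.1 FPKM in control (limma adjusted p = 0.461). Prrx1, a marker of limb mesenchyme, was at 173 to 201 FPKM in CKD and 195 to 216 FPKM in control (limma adjusted p = 0.463).

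Genes that process or release the factors gave 0 calls in limma among 17 tested of 20 (4 at an unadjusted p under 0.05, near the 22.1% of all tested genes; limma-voom 0), with a median of 0.20. Gja1, the connexin 43 gene tied to the release of CXCL12 by stroma, was at 177, 444 and 346 FPKM in CKD and 199.6, 158 and 162 FPKM in control, highest in CKD replicates 2 and 3 (limma log2 fold change 0.80 ± 0.34 SE, adjusted p = 0.246). Dpp4, whose peptidase cuts and inactivates CXCL12, was at most 0.0515 FPKM and listed at 0 in all 3 CKD libraries. Leprot had a log2 fold change of -0.10 ± 0.19 SE (limma adjusted p = 0.801).

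Of 15 surface and other markers of stromal subsets, 13 were tested, with a median log2 fold change of 0.027. Limma called 1, Nes, higher in CKD as 1.33% of all tested genes were. An unadjusted p under 0.05 in limma was found for 3 of the 13, against 22.1% of all tested genes. In the authors' deposited table, q was under 0.05 for 1 of the 13 higher in CKD, Nes (6.72% of all genes), and for 3 lower (4.60%). Nes, the nestin gene that marks perivascular stroma with high Cxcl12 in mice, was at 1.48, 3.11 and 2.13 FPKM in CKD and 0.470, 0.0969 and 0.0900 FPKM in control (limma log2 fold change 1.39 ± 0.22 SE, adjusted p = 0.0471). Nes reached 1 FPKM in the CKD libraries alone, so it entered the test only through the group in which it was higher. It too lost the call in 12 of 16 alternatives and was positive in all 16. Those were fits leaving out CKD replicate 2, CKD replicate 3, or control replicate 2 or 3 (limma adjusted p = 0.199, 0.233, 0.191 and 0.222), a pseudocount of 0.1 (0.0585), the replicate block (0.115), no filter (0.0647) and limma-voom with and without a filter (0.0667 and 0.0872). The call was also lost without the libraries whose tags conflict (0.0682). With groups by that tag the log2 fold change of Nes was 0.61 (limma adjusted p = 0.747), and with the leukocyte covariate it was 0.89 (0.167).

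Pdgfra, a receptor of niche stroma, was at 16.7, 46.0 and 44.3 FPKM in CKD and 39.9, 67.9 and 69.6 FPKM in control (limma adjusted p = 0.342). Pdgfrb was at 119, 134 and 149 FPKM in CKD and 58.8, 115 and 118 FPKM in control (limma adjusted p = 0.341). Its CKD libraries lay wholly above control, as for 18.3% of all tested genes. Grem1, a BMP antagonist of skeletal stem cells, was at 385, 766 and 839 FPKM in CKD and 117, 1437 and 1391 FPKM in control. Its first replicates were the lowest libraries, as they were for Cxcl12 and Ebf3, and the log2 fold change was 0.03 ± 1.04 SE (limma adjusted p = 0.991).

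**Figure D5:**
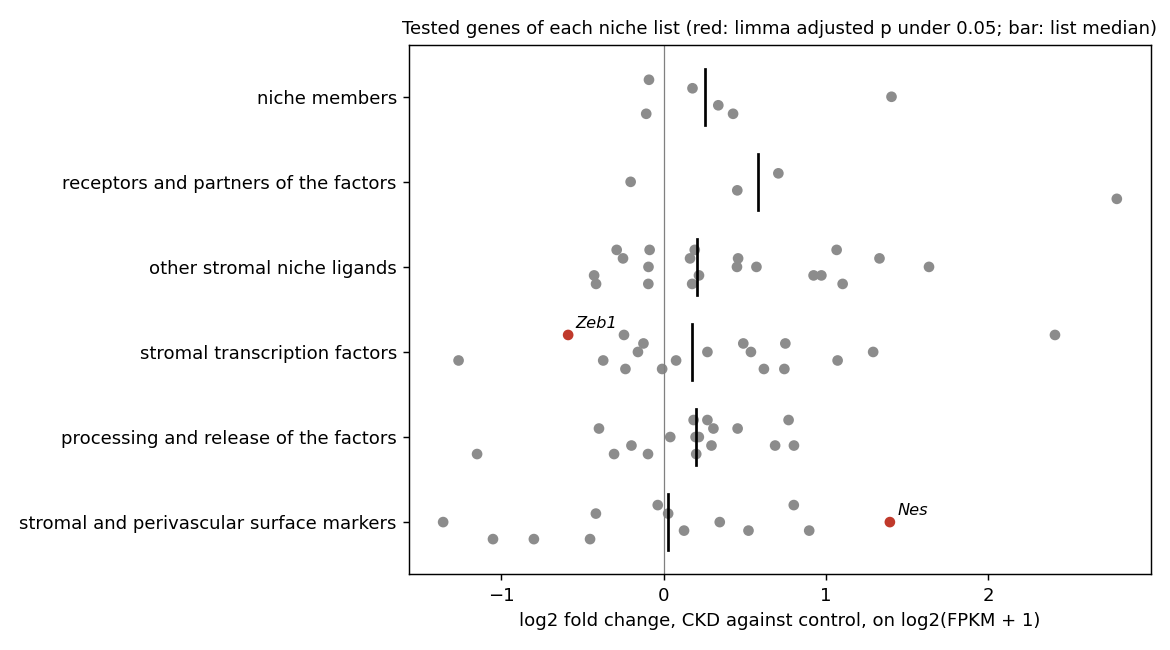
Each point is the limma log2 fold change of 1 tested gene, grouped by list, with called genes in red and the list median as a bar. Only Zeb1 and Nes are called by that fit, and the list medians run from 0.027 to 0.58, with 0.26 for the 6 tested niche factors.

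For each tested factor, the 3 genes most like it were taken by Pearson r of log2(FPKM + 1) over the 6 libraries. The candidates were the 1752 tested genes with at least 5 FPKM on average and a set minimum SD over the libraries. That second condition left out genes that varied little. The libraries form alike pairs, so such values are high for many genes and serve as a description. Cxcl12 was most like Mxi1 (r = 0.994), Litaf (0.994) and Tnfrsf1b (0.993), and Kitlg was most like Wnt5a (0.997), Cux1 (0.994) and Atp2b1 (0.990). Vcam1 was most like Marcksl1 (0.993), Rcl1 (0.990) and Pla2g7 (0.990), whose level was 75.5 and 64.3 FPKM in CKD replicates 2 and 3 and 3.73 to 8.43 FPKM elsewhere. Angpt1 was most like Prdx5 (0.991), Resf1 (0.988) and Lipa (0.988). Ebf3 was most like Snx24 (0.998), Vrk3 (0.996) and Arid5b (0.994), and Foxc1 was most like Picalm (0.995), Tars1 (0.986) and Tuba1a (0.985).

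Among the factors themselves, Cxcl12 and Angpt1 were the most alike (r = 0.904 over 6 libraries), and Foxc1 and Ebf3 the most opposed (r = -0.801).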

How the data were processed

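RNA of 6 libraries was measured by poly-A selected, stranded sequencing, per the labels' protocols. For 16690 genes the authors deposited FPKM values per library and mean normalized counts per group, beside their own comparison (fold and log2 fold change, p-value, q-value), per the file headers. HISAT2 2.1.0, HTSeq 0.11.2 and DESeq2 1.22.2 with the build mRatBN7.2 are among those named in the submitters' processing notes, without settings. Fragment counts were recovered from the FPKM values and group means, and all 100140 values came out whole within 0.01. Limma 3.58.1 under R 4.3.3 was fitted to log2(FPKM + 1) of all 6 libraries, with a mean-variance trend and a two-sided test of CKD against control. It covered the 10638 genes that reached 1 FPKM in 3 or more libraries, with Benjamini-Hochberg adjustment at 0.05. Such fold changes understate the change of low genes. The fit was also run on simulated data with known changes, drawn with the same spread for every gene and no library set apart. The real first replicates stood apart from their groups, so that run cannot show how the fit does on these libraries. No 2 libraries agreed within sampling noise, since chi-square per degree of freedom was 5.53 or more for each pair.

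Members and gene lists were chosen with earlier results of these data known. Named genes are the 8 members, up to 4 called genes of each list with the lowest adjusted p, 24 further genes fixed by name the 3 genes most like each tested member, and markers of other cell types that move with a result. Angpt4, Tgfb1, Itga9, Dcn and the osteoblast and fat cell markers named were chosen after their values were seen. Of those 24, Ngfr is not analysed here. Deviations of libraries with the same replicate number correlated at 0.036, -0.031 and 0.109, and those of different numbers at -0.106 to 0.093. Such values do not settle whether the numbers pair the libraries. Between the groups, CKD replicate 1 and control replicate 1 were the most alike (r = 0.967). The replicate block lowered the SE of every tested factor except Vcam1, for Cxcl12 from 0.65 to 0.33 and for Angpt1 from 0.75 to 0.67. The replicate numbers are those of the columns, and CKD replicate 3 has a different number in its title, so the third pair and the block rest on the column number. Alternatives were another pseudocount, no filter, upper quartile scaling, limma-voom on recovered counts, a replicate block, a covariate of leukocyte markers, grouping by the disease model tag and fits without certain libraries. Coordinates and sequences are not used here.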

Additional observations from a re-analysis of the deposited data

How the results depend on the processing

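Each result was recomputed in 16 alternative fits, or 1 for Il7 and Lepr. Of the 98 values of the members so obtained, 71 kept their direction and side of the threshold, 9 became called with the same sign and 18 changed sign, and the cause was not tested. Cxcl12 without both first replicates both changed sign and was called, so 10 values were called in all. Cxcl12 changed sign with groups by the disease model tag (1.05), without both libraries with conflicting tags (0.71) and without both first replicates (0.33), and Foxc1 with groups by that tag (-0.20). With the leukocyte marker covariate Angpt1 was -1.33 and Ebf3 0.35. Ebf3 was also positive with a pseudocount of 0.1 (0.42), in limma-voom with and without a filter (0.96 and 0.97), without the conflicting tags (0.72) and with groups by tag (1.06). Angpt1 was called without both first replicates (1.09) and without the conflicting tags (1.06), and Vcam1 likewise (2.03 and 1.72). Leaving out each library gave ranges of -0.51 to 0.61 for Cxcl12, -0.27 to 1.07 for Angpt1, -0.91 to 0.33 for Ebf3, 0.23 to 0.65 for Foxc1, 0.21 to 0.54 for Kitlg and 1.08 to 1.90 for Vcam1.

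Counts of called genes moved most without both first replicates, in a fit that called 55.0% of all genes, to 6 niche factors, 3 receptors, 15 other ligands, 15 transcription factors, 13 processing genes and 10 surface markers. Without both libraries with conflicting tags (2.80% of all genes called) they were 2 niche factors, 1 other ligand, 3 transcription factors, 2 processing genes and 0 surface markers. Transcription factors and surface markers both fell to 0 calls without a filter, with the replicate block, in limma-voom with and without a filter, with groups by tag and with the covariate. The surface markers also fell to 0 with a pseudocount of 0.1, and the transcription factors with upper quartile scaling. Leaving out each library gave 0 to 2 niche factors, 0 to 2 receptors, 0 to 6 other ligands, 0 to 5 transcription factors, 0 to 6 processing genes and 0 to 4 surface markers, and the counts above 0 came from leaving out CKD replicate 1 (15.1% of all genes called) or control replicate 1 (12.0%). The replicate block changed no call of a niche factor. Low fragment counts limit Il7 and Lepr, with at most 103 fragments per library. Ebf3 had 12 fragments in control replicate 1, although that library had the highest recovered depth (46892613 fragments).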

Other observations

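Fabp4, a lipid carrier of fat cells and of macrophages, was at 95.1 and 93.0 FPKM in CKD replicates 2 and 3 and at 1.55 to 4.23 FPKM in the other libraries, whereas Plin1, a coat protein of fat droplets, was at most 0.0537 FPKM. Of 6 osteoblast markers 5 were in the table, and they did not share an order. Alpl was at 40.7 FPKM in CKD replicate 1 and 19.4 FPKM in control replicate 1 against 3.56 to 9.22 FPKM elsewhere, and Ibsp was at 4.17 and 6.72 FPKM in those libraries against 0.108 to 0.869 FPKM elsewhere. Sp7 was highest in CKD replicate 1 (1.86 FPKM), but in control replicate 1 (0.443 FPKM) it lay below CKD replicates 2 and 3 (0.659 and 0.636 FPKM). Bglap was highest in control replicate 3, at 0.912 FPKM, and Phex was at most 0.0495 FPKM. Lymphoid and granulocyte markers summed to at most 0.0637 and 0.642 FPKM.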
